A study of Mus musculus with 2 samples.

Results

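The cells described here are the cycling cells of the fibrotic mouse liver, taken across all lineages. They were chosen by their own values: a droplet barcode counted as cycling when it held at least 2 UMIs (unique molecular identifiers, each standing for 1 captured RNA molecule) of Mki67 and at least 2 of Top2a. Of 24093 barcodes with 200 or more genes and no more than 20% of UMIs from mitochondrial genes, 830 met the rule, 312 of 11370 in the wild-type library and 518 of 12723 in the knockout library. Each barcode was given to a lineage by the highest of 6 sums of marker UMIs, and the groups are named by those sums: C1q-led (C1qa, C1qb and C1qc), CD3-led (Cd3d, Cd3e and Cd3g), CD79/Ms4a1-led, Ptprb/Stab2/Kdr-led, Flt3/H2-Aa-led and Ncr1/Klrb1c-led.

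Cells that divide pass through DNA replication (S phase), a gap (G2) and mitosis (M). Replication genes such as the MCM helicase and ribonucleotide reductase are transcribed under E2F factors before and during S phase. Mitotic genes such as cyclin B, CDK1 and the spindle kinesins are transcribed later. Their timing runs through DREAM, MYB and FOXM1 complexes, which act at CHR promoter elements, and such promoters often hold CCAAT elements too. Mki67 encodes the Ki-67 protein that coats mitotic chromosomes, and Top2a encodes the topoisomerase that untangles replicated DNA. In injured liver, resident macrophages, lymphocytes, sinusoidal endothelial cells and bile duct cells can all re-enter the cycle.

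Liver non-parenchymal cells, the liver's cells other than hepatocytes, came from Mfap2+/+ (wild-type) and Mfap2-/- (knockout) mice. Both groups had received intraperitoneal carbon tetrachloride (CCl4), a hepatotoxin that causes fibrosis, over 8 weeks, so every cell here comes from an injured liver and no untreated group was analysed here. Each genotype was 1 droplet library of 3′ transcript tags (10x v3 chemistry). Mfap2 encodes a glycoprotein of extracellular microfibrils, and the labels give neither the kind of null allele nor the number, sex or age of the animals. With 1 library a genotype, genotype, animals and library preparation cannot be told apart, no test between genotypes is possible, and every interval below is a 95% interval for counting error alone.

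Mfap2 itself had 257 UMIs in the wild-type library and 4 in the knockout library, 12 and 1 of them in cycling barcodes. The libraries held 82499307 and 118226367 UMIs over 11783 and 12872 barcodes. Filters removed 413 and 149 barcodes. The libraries shared 40 barcode sequences, 1 of them cycling in each library. The Y-linked gene Ddx3y stood at 149 counts per 1000000 UMIs (CPM) in the wild type against 198 CPM in the knockout. Cycling barcodes were deep: the median was 17948.5 UMIs in the wild type against 21214 in the knockout, against 4745 and 6328 in the other barcodes. The knockout library was thus deeper by 1.33 times in non-cycling and 1.18 times in cycling barcodes, and a rule on UMIs can reach more barcodes where depth is higher.

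Within the members, the UMIs of both rule genes spread widely. Mki67 (ENSMUSG00000031004) ranged from 2 to 40 UMIs per barcode in the wild type, with a median of 6, and from 2 to 138 in the knockout, with a median of 10. Top2a (ENSMUSG00000020914) ranged from 2 to 76 UMIs in both libraries, with medians of 8 and 9. Summed over all members, Mki67 stood at 344 CPM in the wild type against 485 CPM in the knockout, and Top2a at 411 and 461 CPM. These levels chose the members and are given as a description.

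The rule's border ran through a continuum. Just inside it, 61 wild-type and 85 knockout barcodes had exactly 2 UMIs of the lower of the 2 genes, and just outside it 196 and 371 had exactly 1. A list of 30 G2/M genes that includes neither rule gene summed to 1244 CPM (wild type) and 974 CPM (knockout) just inside the border and to 683 and 403 CPM just outside. Barcodes with at least 3 UMIs of both genes had 3056 and 2958 CPM, and barcodes with neither gene 144 and 169 CPM. At least 10 G2/M-list UMIs stood in 90.1% of wild-type members and in 89.6% of knockout ones. Among barcodes led by neutrophil genes, a cell type that has left the cycle, 7 of 962 (0.728%) wild-type and 2 of 786 (0.254%) knockout barcodes met the rule, at median depths of 2418 and 2855.5 UMIs.

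**Figure D1:**
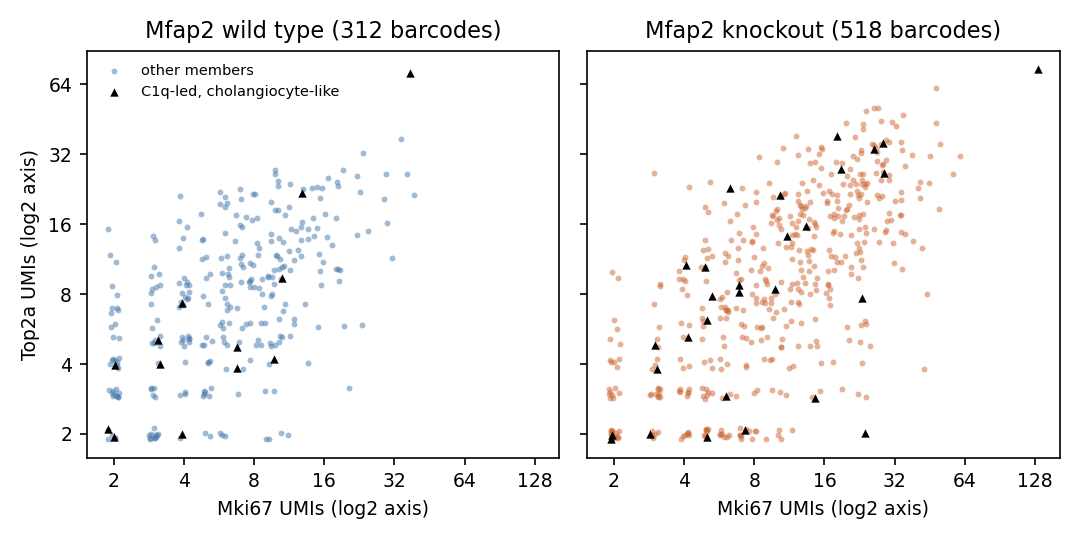
Mki67 UMIs (x axis) and Top2a UMIs (y axis) of every cycling barcode, both on log2 axes with small random shifts to separate equal values; the wild type (312 barcodes) is on the left and the knockout (518 barcodes) on the right. Black triangles are the C1q-led barcodes with cholangiocyte genes, which include the barcodes with the most UMIs, 1 with 138 Mki67 and 76 Top2a UMIs in the knockout and 1 with 76 Top2a UMIs in the wild type.

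Promoter stretches of both rule genes and of 3 further members of the gene lists are shown so that the letters searched for, those of the promoter elements named above, can be seen in place. They are the 130 bases before the annotated start, taken from RefSeq on build GRCm38.p6 and printed 5′ to 3′ on the gene's strand, and none of them overlaps an annotated exon. Capitals mark matches, on either strand, to the CHR letters (TTTGAA or TTCGAA), to CCAAT, or to the E2F letters (TTTCCCGC, TTTCGCGC, TTTGCCGC or TTTGGCGC).
Mki67, chr7:135716380-135716509, reverse strand: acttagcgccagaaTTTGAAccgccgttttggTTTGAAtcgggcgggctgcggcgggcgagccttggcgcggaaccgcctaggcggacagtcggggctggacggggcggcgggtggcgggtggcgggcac
Top2a, chr11:99024190-99024319, reverse strand: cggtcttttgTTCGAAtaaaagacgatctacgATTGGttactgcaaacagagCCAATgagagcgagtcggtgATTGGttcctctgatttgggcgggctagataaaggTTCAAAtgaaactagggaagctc
Ccnb2, chr9:70421555-70421684, reverse strand: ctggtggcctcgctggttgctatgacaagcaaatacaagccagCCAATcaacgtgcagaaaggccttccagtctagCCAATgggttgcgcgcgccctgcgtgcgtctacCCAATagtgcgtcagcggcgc
Mcm5, chr8:75109379-75109508, forward strand: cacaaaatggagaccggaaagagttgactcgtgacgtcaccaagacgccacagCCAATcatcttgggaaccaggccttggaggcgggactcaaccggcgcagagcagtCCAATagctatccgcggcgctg
Mcm6, chr1:128359706-128359835, reverse strand: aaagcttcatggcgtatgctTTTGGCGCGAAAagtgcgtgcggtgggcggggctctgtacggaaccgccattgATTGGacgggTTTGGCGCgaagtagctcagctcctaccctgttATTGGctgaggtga
Mki67 held 2 CHR matches in this stretch, and Top2a held 2 CHR and 3 CCAAT matches. Ccnb2, a mitotic cyclin, held 3 CCAAT matches, Mcm5 held 2 CCAAT matches, and Mcm6 held 2 CCAAT and 3 E2F matches, 2 of which overlap in 1 run of capitals. Beyond the printed bases, the 250-base windows also held CHR letters for Ccnb2, E2F letters for Mcm5 and CCAAT letters for Mki67. Over windows of the 250 bases before the start, 8 of 27 windows of G2/M-list genes (29.6%) held CHR letters, against 17.1% of all 32851 windows. The CCAAT letters were in 19 of the 27 G2/M windows (70.4%) and 17 of 25 S-phase-list windows (68.0%), against 33.8% of all windows. The E2F letters were in 9 of 25 S-phase windows (36.0%), 1 of 27 G2/M windows (3.70%) and 1.86% of all windows. Of the 30 genes of each list, 27 and 22 were matched in the RefSeq table, and a match of letters is a description, not a binding site.

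Cycling barcodes made up 2.74% (2.45 to 3.06) of the wild-type library and 4.07% (3.74 to 4.43) of the knockout library, a ratio of 1.48 (1.29 to 1.71). The share was higher in the knockout in the 5 largest groups, and the size of the difference varied between them. After every barcode was thinned to 5000 UMIs, with the rule at 1 UMI of each gene, the shares were 4.34% and 5.57% (log2 ratio 0.36), and 5745 wild-type and 4751 knockout barcodes were too shallow to enter. Among the members, 35 wild-type (11.2%) and 89 knockout (17.2%) barcodes had the highest doublet scores (droplets that may hold 2 cells), and the shares without them were 2.68% and 3.75%.

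Endothelial barcodes, led by Ptprb, Stab2 and Kdr, had the widest difference of these groups: 5 of 1344 (0.372%, 0.121 to 0.866) met the rule in the wild type and 44 of 1888 (2.33%, 1.70 to 3.12) in the knockout, a ratio of 6.26 (2.49 to 20.2). Flt3/H2-Aa-led barcodes came next, with 45 of 1823 (2.47%, 1.81 to 3.29) in the wild type and 152 of 3061 (4.97%, 4.22 to 5.80) in the knockout, a ratio of 2.01 (1.43 to 2.87). C1q-led barcodes had 172 of 5683 (3.03%, 2.60 to 3.51) and 214 of 5428 (3.94%, 3.44 to 4.49). For CD3-led barcodes the counts were 40 of 630 (6.35%, 4.57 to 8.55) and 65 of 723 (8.99%, 7.01 to 11.3), and for Ncr1/Klrb1c-led barcodes 34 of 370 (9.19%, 6.45 to 12.6) and 24 of 181 (13.3%, 8.68 to 19.1). The intervals of the last 2 groups' ratios, 0.941 to 2.16 and 0.819 to 2.51, include no difference. Cycling was rare among CD79/Ms4a1-led barcodes (3 of 258 and 6 of 268). Among barcodes with no UMI of any sum, 0 of 425 and 0 of 241 met the rule, which allows shares of up to 0.706% and 1.24% (3 counts over the total; the Clopper-Pearson upper bounds are 0.864% and 1.52%).

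By makeup, C1q-led barcodes were the largest group of members in both libraries, 55.1% (49.4 to 60.7) of wild-type and 41.3% (37.0 to 45.7) of knockout members. Flt3/H2-Aa-led barcodes were 14.4% (10.7 to 18.8) and 29.3% (25.5 to 33.5), and endothelial barcodes 1.60% (0.522 to 3.70) and 8.49% (6.24 to 11.2). CD3-led barcodes held nearly the same place, 12.8% and 12.5%, and Ncr1/Klrb1c-led barcodes were 10.9% (7.67 to 14.9) and 4.63% (2.99 to 6.82). With Flt3 alone in place of the Flt3/H2-Aa sum, an alternative added after seeing the data, these directions turned: Flt3-led barcodes were 1.28% and 0.97% of members, and C1q-led barcodes 67.3% and 69.7%. These shares sum to a whole, so a higher share of 1 group means a lower share of the others.

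**Figure D2:**
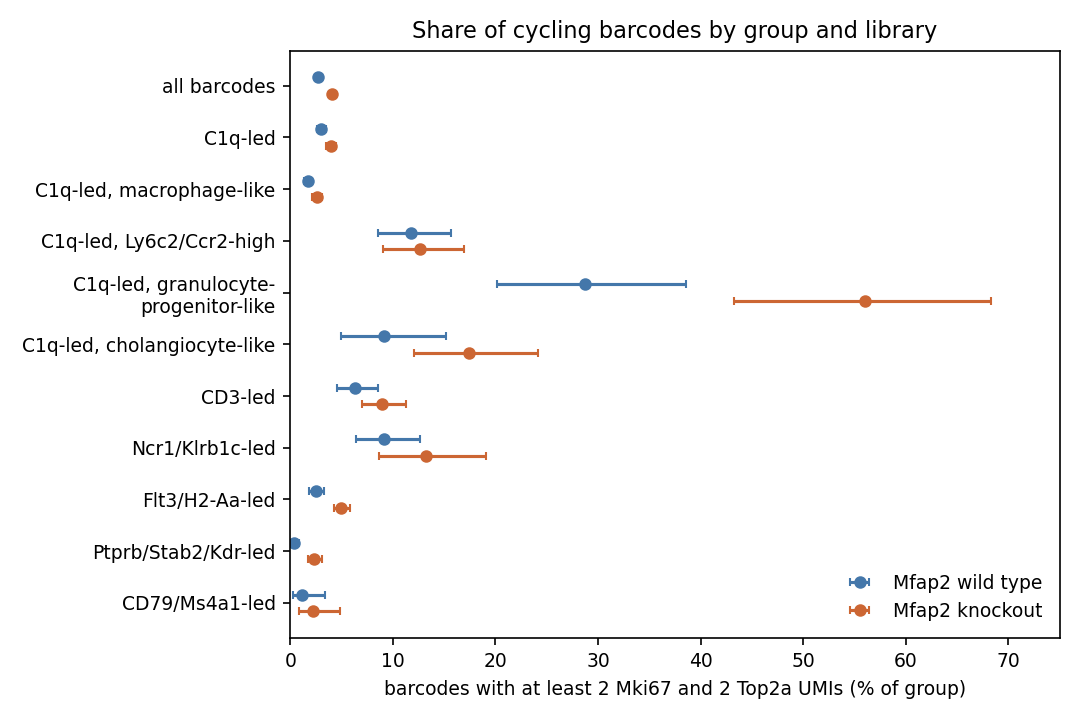
Share of barcodes that met the cycling rule (x axis, % of the group) by group (y axis) in the wild-type (blue) and knockout (orange) library; bars are 95% Clopper-Pearson intervals for counting error, with 1 library each. Granulocyte-progenitor-like barcodes have the highest shares, 28.7% and 56.1%, and endothelial barcodes run from 0.372% to 2.33%.

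The C1q sum did not mark macrophages alone. C1qa stood at 120 to 425 CPM in the members led by the other 5 sums, over both libraries, against 1735 and 1849 CPM in the macrophage-like members described next. The highest of 16 marker sums, a split added after these data were seen, placed 67 of the 172 wild-type and 101 of the 214 knockout C1q-led members as macrophage-like. A further 41 and 38 had the sum of Ly6c2, Ccr2, F13a1 and Vcan highest (Ly6c2/Ccr2-high), 29 and 37 were granulocyte-progenitor-like, and 13 and 29 were cholangiocyte-like. The other 22 and 9 fell to further sums or ties.

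Macrophage-like barcodes were the least often cycling of these 4 kinds: 67 of 3914 (1.71%, 1.33 to 2.17) met the rule in the wild type and 101 of 3915 (2.58%, 2.11 to 3.13) in the knockout. Csf1r, the CSF1 receptor and a macrophage marker that the rule does not use, stood at 420 and 301 CPM in these members and at 689.9 and 502 CPM in the non-cycling macrophage-like barcodes. Resident Kupffer-cell genes summed to 3987 CPM in the wild type against 1317 CPM in the knockout, led by Cd5l at 2402 and 830 CPM. In the non-cycling macrophage-like barcodes the Kupffer-cell genes summed to 4045 and 1814 CPM. Genes of scar-associated macrophages summed to 1356 and 2574 CPM in members, but to 2549 and 2230 CPM in the non-cycling ones, the other direction. Of these genes, Gpnmb went from 58.9 to 629 CPM in members, with 63.9% of the knockout UMIs in 5 barcodes. RNA of hepatocytes moved with the genotype in macrophage-like members: 5 hepatocyte genes summed to 50.9 CPM in the wild type against 1714 CPM in the knockout. For the hepatocyte gene Alb, 93.4% of the knockout UMIs lay in the 5 barcodes richest in it, and the part of such RNA in the other differences was not tested.

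Ly6c2/Ccr2-high barcodes met the rule at close shares, 41 of 348 (11.8%, 8.59 to 15.6) in the wild type and 38 of 301 (12.6%, 9.09 to 16.9) in the knockout. Their 4 monocyte genes, with Ly6c2 at 1107 and 1325 CPM, summed to 2618 and 2882 CPM in members. Granule genes of neutrophil precursors stood higher still, S100a8 at 18285 and 5469 CPM and Camp at 10494 and 3520 CPM, so these barcodes are called by their sum and not monocytes. Granulocyte-progenitor-like barcodes, which express the primary-granule genes Mpo, Elane and Prtn3, had the highest shares: 29 of 101 (28.7%, 20.1 to 38.6) and 37 of 66 (56.1%, 43.3 to 68.3). Elane stood there at 4255 CPM in the wild type against 2712 CPM in the knockout. Cholangiocyte-like barcodes, which express the bile duct genes Epcam and Krt19, had 13 of 142 (9.15%, 4.97 to 15.1) and 29 of 166 (17.5%, 12.02 to 24.1) cycling. They were the deepest, with medians of 100972 and 92484 UMIs, and the lowest in Mki67, at 73.2 and 162 CPM, and in a deeper barcode 2 UMIs are a lower level.

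T-cell identity held in the CD3-led members. Every one of the 40 wild-type and 65 knockout barcodes had at least 3 UMIs of 6 further T-cell genes, which summed to 2237 and 2074 CPM. Cd8a, the co-receptor of cytotoxic T cells, stood at 155 CPM in wild-type and 99.0 CPM in knockout cycling barcodes, and at 114 and 72.2 CPM in the non-cycling ones. Cd4 stood at 16.6 and 18.6 CPM. Foxp3, the regulatory T-cell factor, had a UMI in 1 of 40 wild-type and 6 of 65 knockout members before thinning, and in 1 and 5 of them at 3000 UMIs. Of these members, 7 and 15 had the highest of their 16 sums in the list with Ly6c2, a monocyte gene that activated CD8 T cells also express. When barcodes with a second lineage sum of at least 50% of the highest were left out, the shares turned to 7.47% (29 of 388) and 6.93% (28 of 404).

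Natural killer cells and innate lymphoid cells share Ncr1 and Klrb1c. All 34 wild-type and 24 knockout members of that group had at least 3 UMIs of 7 further NK-cell genes, with summed levels of 5116 and 4131 CPM. But 21 (61.8%) and 19 (79.2%) of them were mixed, with a second lineage sum of at least 50% of the highest. Without mixed barcodes, 13 of 165 (7.88%) wild-type and 5 of 49 (10.2%) knockout barcodes of the group met the rule. Eomes, Itga2, Klra8 and S1pr5, genes of circulating NK cells, had a UMI in 15 of 34 wild-type members at 3000 UMIs per barcode, against 40 of 313 non-cycling barcodes, and in 7 of 24 knockout members, against 29 of 154. Cxcr6, Itga1, Tnfsf10 and Cd200r1, genes of the liver-resident ILC1, had a UMI in 9 of 34 wild-type members, against 167 of 313, and in 9 of 24 knockout members, against 102 of 154. Cycling barcodes thus had the higher share for the first set and the lower share for the second in both libraries, and before thinning too: 64.7% against 21.1% and 54.2% against 28.7% for the first set, then 55.9% against 72.6% and 70.8% against 82.8% for the second.

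The Flt3/H2-Aa sum takes in any barcode rich in H2-Aa, an MHC class II gene that B cells also express. At least 3 UMIs of Cd79a, Cd79b and Ms4a1 together were in 42.6% of wild-type and 47.0% of knockout non-cycling barcodes of this group, but in 8.89% and 13.2% of its cycling barcodes. Flt3, by level and not by detection, stood at 139 and 119 CPM in cycling barcodes and at 84.8 and 69.4 CPM in the others, which were shallower (medians of 3756.5 and 5461 UMIs, against 20412 and 24146). Without all barcodes that held 3 or more of those B-cell UMIs, 41 of 1061 (3.86%) wild-type and 132 of 1673 (7.89%) knockout barcodes of the group met the rule, an alternative added after seeing the data. Dendritic genes that the sum does not use, Zbtb46 and Batf3 among the 7, summed to 454 and 516 CPM in the cycling barcodes.

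Within that group, cycling barcodes were richer in genes of cross-presenting type 1 dendritic cells. Xcr1, their chemokine receptor, stood at 78.6 CPM in wild-type and 77.5 CPM in knockout cycling barcodes, against 33.1 and 21.1 CPM in non-cycling ones. Clec9a, their receptor for dead cells, stood at 92.3 and 113 CPM, against 63.8 and 48.5 CPM. Kit, the stem cell factor receptor, stood at 99.6 and 111 CPM, against 41.8 and 44.5 CPM. Ccr7, which guides mature dendritic cells to lymph nodes, stood lower in cycling barcodes, at 202 and 77.5 CPM against 498 and 428 CPM, and 84.5% of its wild-type cycling UMIs lay in 5 barcodes. At 3000 UMIs, 10 of 42 wild-type and 29 of 144 knockout cycling barcodes had a UMI of Ccr7 or Fscn1, against 659 of 1231 and 1442 of 2540 non-cycling ones, and 24 of 45, 84 of 152, 1032 of 1778 and 1878 of 2909 before thinning. Type 1 genes had a UMI at 3000 UMIs in 23.8% and 26.4% of cycling barcodes, against 8.77% and 6.61%. Type 2 genes were also seen more often, in 16.7% and 20.1% against 6.50% and 7.72%. Their level before thinning was 59.8 and 86.4 CPM, against 60.6 and 70.9 CPM. Non-cycling barcodes held more B-cell RNA, and its part in these contrasts was not tested.

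Endothelial identity held as well: Pecam1, Cdh5 and 4 further endothelial genes summed to 1587 CPM in the 5 wild-type and 1396 CPM in the 44 knockout members. Stab2, the hyaluronan receptor of sinusoidal endothelium, stood at 2210 and 1588 CPM, but it is part of the sum that chose the group. Other sinusoidal genes summed to 2507 and 1496 CPM in members, against 2183 and 2066 CPM in the non-cycling endothelial barcodes. The large-vessel gene Vwf stood at 42.5 and 42.1 CPM, against 197 and 90.6 CPM, with only 5 wild-type members. At 3000 UMIs, large-vessel genes had a UMI in 1 of 5 and 27 of 43 members, against 686 of 872 and 877 of 1379 non-cycling barcodes. Of the 44 knockout members, 15 (34.1%) were among the highest doublet scores, and without such barcodes 4 of 1191 (0.336%) wild-type and 29 of 1633 (1.78%) knockout endothelial barcodes met the rule. With at least 10 G2/M-list UMIs in place of the rule, the counts were 22 of 1344 (1.64%) and 113 of 1888 (5.99%). The CD79/Ms4a1-led members were few, and all 3 wild-type ones had plasma-cell genes highest, with Jchain, the joining chain of secreted antibodies, at 24554 CPM.

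Cycling barcodes were then set against non-cycling barcodes of the same group and library, over the 4 groups with at least 20 members in both libraries (C1q-led, CD3-led, Flt3/H2-Aa-led and Ncr1/Klrb1c-led), which gives 8 pairs. The members were chosen on this contrast, so these values are a description. Of 10681 genes with a mean level of at least 5 CPM, 854 (8.00%) had a median of at least 2-fold over the 8 pairs, and the median of all genes was 0.16 on the log2 scale.

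Replication genes were higher throughout. All 15 origin licensing genes and all 20 replication fork genes had a median of at least 2-fold, with list medians of 2.02 and 2.30 on the log2 scale. Mcm5, a helicase subunit, had a median log2 ratio of 2.31 (2.16 to 2.61 over the pairs), and Cdc45, its partner in the active helicase, 3.64 (3.18 to 4.31). Rrm2, the regulated subunit of ribonucleotide reductase, had the highest ratio of the fork genes, 4.50 (3.97 to 5.51). Pcna, the sliding clamp, had 1.39 (0.98 to 1.82): it stood at 172 CPM in wild-type members and 70.0 CPM in the other barcodes, so barcodes outside the rule also held it.

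Cyclins divided by type. The S and M cyclins were far higher in members: Ccna2 at 4.85 (4.25 to 5.66), Ccnb1 at 4.40 (3.29 to 4.85) and Ccnb2 at 3.42 (2.71 to 3.90), with the mitotic kinase Cdk1 at 4.74 (3.94 to 5.11). The E cyclins were higher in members in all 8 pairs, Ccne1 at 1.90 (0.54 to 3.48) and Ccne2 at 2.17 (1.17 to 3.04). The D cyclins were not: Ccnd1 had a median of 0.10 (-0.96 to 2.04), Ccnd2 -0.87 (-1.28 to 0.07) and Ccnd3 -0.89 (-1.78 to 0.08). Ccnd2 and Ccnd3 were lower in members in 7 of 8 pairs. Ccnd1 stood highest in cholangiocyte-like barcodes, at 894 and 827 CPM in cholangiocyte-like members and 596 and 507 CPM in the other cholangiocyte-like barcodes. Among CDK inhibitors, the INK4 genes Cdkn2c (2.05, 1.27 to 2.50) and Cdkn2d (1.73, 1.64 to 2.42) were higher in members in every pair. Cdkn1b, which encodes the quiescence inhibitor p27, was at -0.31 (-0.96 to 0.03).

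Among transcription factors, E2f8 (4.30) and E2f7 (3.35), the repressors of the late E2F programme, and Foxm1 (3.73) and Mybl2 (3.34), activators of mitotic genes, had wide ratios. Rb1 (-0.17) and the DREAM subunit Lin54 (0.22), which are present outside the cycle too, did not. All 16 kinetochore genes and all 27 spindle genes were at least 2-fold higher, with list medians of 4.07 and 4.11. Cenpf, a kinetochore protein of G2, stood at 4.83 (4.13 to 5.59) and Kif4, a chromosome-bound kinesin, at 4.92 (4.48 to 5.59). Of the condensin and cohesin list, 10 of 11 genes were at least 2-fold higher, from Smc3 at 1.05 to the condensin gene Ncapg at 4.39, and Pttg1, securin, was at -0.29. All 7 genes of the anaphase-promoting complex list were at least 2-fold higher, with Ube2c, its E2 enzyme, at 4.20.

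Outside the lists, the genes of at least 100 CPM with the widest ratios were again of division. They were led by the histone genes Hist1h2ae (4.83), Hist1h2ap (4.82) and Hist1h1b (4.81), by Aspm (4.77), a spindle-pole protein, and by Pclaf (4.34), a clamp-bound factor. Brca1 (3.63), for repair of replicating DNA, and Dnmt1 (2.14), which copies DNA methylation, followed. Response lists stayed near the median of all genes: heat shock at -0.00, immediate early genes at -0.13, and p53 targets at 0.26, with no gene at least 2-fold. Of all 10681 genes, 6839 were above 0. Glycolysis genes were modestly higher by list median (0.53), with 9 of 12 genes above 0, a share not far from that of all genes. Interferon genes were lower, with a median of -0.52 and 0 of 11 above 0.

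**Figure D3:**
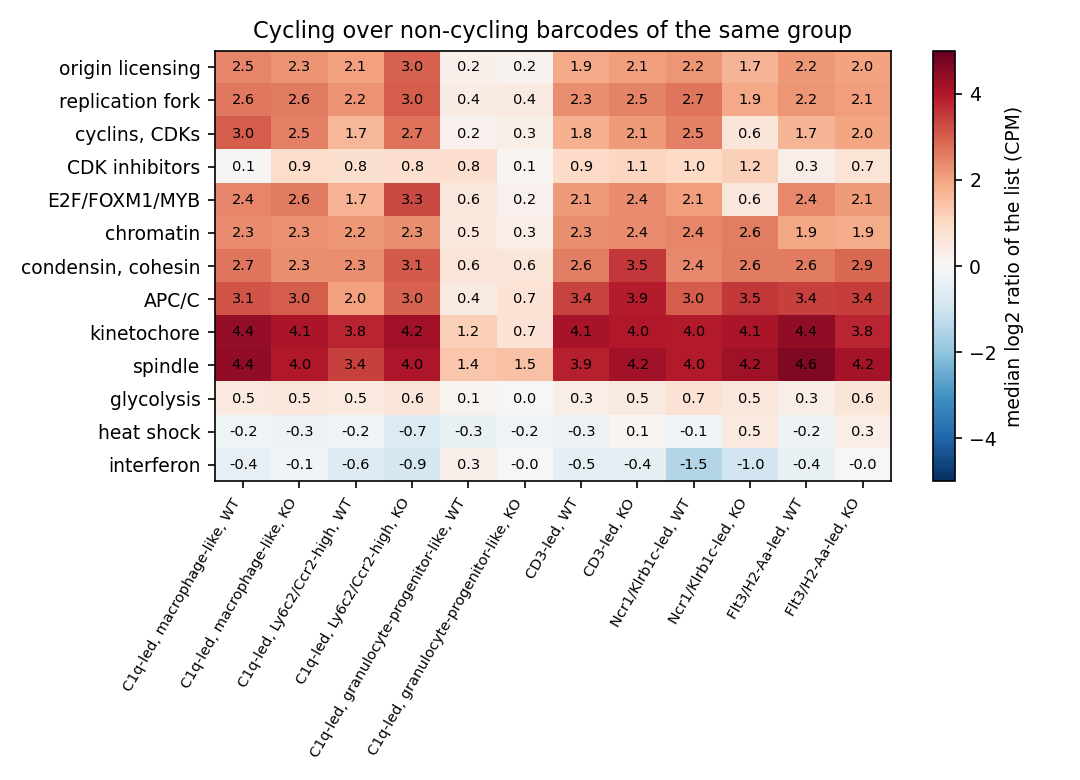
Median log2 ratio of CPM, cycling over non-cycling barcodes of the same group (colour and number), for 13 gene lists (rows) in 6 groups of each library (columns, WT wild type and KO knockout). Spindle and kinetochore lists are the reddest rows, and the 2 granulocyte-progenitor-like columns are the palest.

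Granulocyte-progenitor-like barcodes differed from the other groups. Their non-cycling barcodes already held S-list genes at 2391 CPM in the wild type against 1994 CPM in the knockout, close to the 2885 and 2348 CPM of their members, and G2/M-list genes at 1001 and 1062 CPM, against 2368 and 2546 CPM in members. In macrophage-like barcodes the S list stood at 360 and 352 CPM outside the rule and at 1892 and 1667 CPM in members. Mcm3, another helicase subunit, showed the same in single-gene form: 153 and 143 CPM in granulocyte-progenitor-like members and 126 and 152 CPM in the rest of that group, but 85.7 and 70.2 against 17.8 and 16.8 CPM in macrophage-like barcodes.

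The balance of the phases was read per barcode as the G2/M list's percent of all S and G2/M list UMIs. Over all members its median was 54.6% in the wild type against 61.6% in the knockout, and 55.6% and 61.5% at 5000 UMIs per barcode (299 and 490 barcodes, with 13 and 28 left out). Ly6c2/Ccr2-high members lay toward G2/M in both libraries, at 73.4% and 70.1%. Granulocyte-progenitor-like members lay lower, at 47.9% and 43.0%, and cholangiocyte-like members at 21.3% and 49.6%, over 13 and 29 barcodes. CD3-led members had 52.6% and 66.0%, and Ncr1/Klrb1c-led members 56.5% and 66.2%. Flt3/H2-Aa-led members went the other way, 72.7% and 63.2%. At 5000 UMIs the CD3-led values were 57.6% and 61.8%, a narrower gap than without thinning. Single barcodes ran from 2.82% to 100% in macrophage-like members of the knockout alone, and the libraries overlapped in every group.

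**Figure D4:**
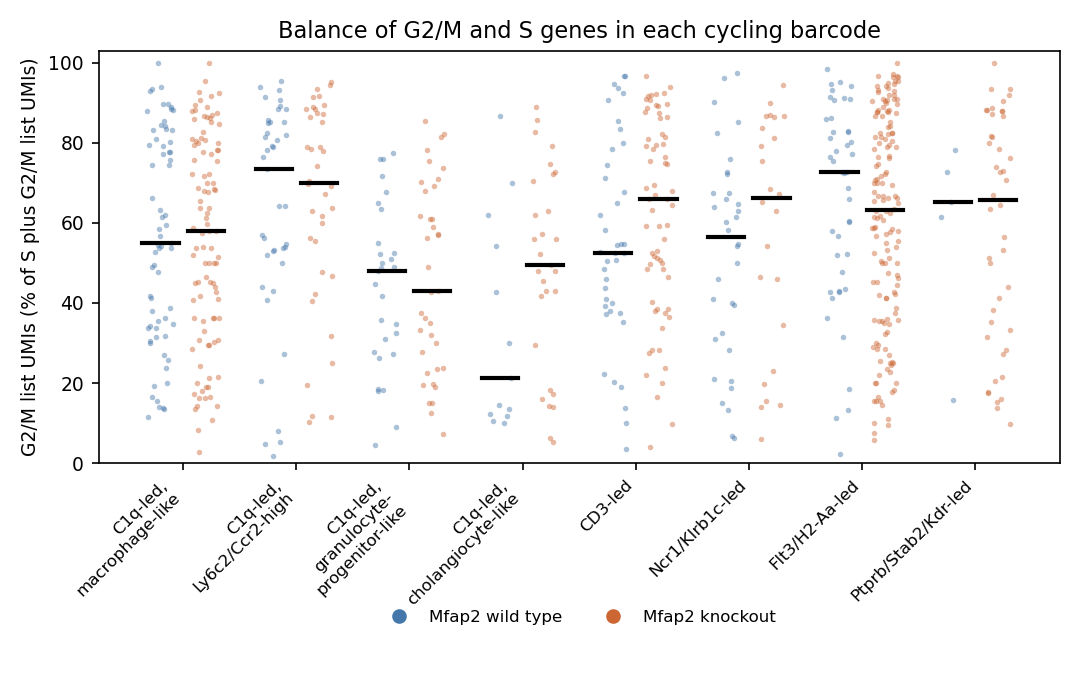
G2/M-list UMIs as a percent of S plus G2/M list UMIs (y axis) in each cycling barcode (points) by group (x axis), wild type in blue and knockout in orange, with black bars at the medians. Ly6c2/Ccr2-high members have medians of 73.4% and 70.1%, and wild-type cholangiocyte-like members the lowest, 21.3%.

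Knockout and wild-type members were compared gene by gene as log2 ratios of CPM, with 1 count added and the 4 groups above weighted equally. Equal weights take out the makeup between the groups and not that within one: of C1q-led members, 39.0% of wild-type and 47.2% of knockout ones were macrophage-like, and 7.56% and 13.6% cholangiocyte-like. Of 5743 genes with at least 20 UMIs in each group, 82 (1.43%) were at least 2-fold higher in the knockout and 16 (0.279%) at least 2-fold lower, and the median of all genes was 0.08. None of the genes of the 10 cell-cycle lists reached 2-fold either way.

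Replication genes leaned lower in knockout members of some groups. With the groups weighted equally, 17 of 20 fork genes were below 0, against 2433 of the 5743 genes tested, with a list median of -0.21 (-0.16 in non-cycling barcodes). S-phase-list genes had a median of -0.16, with 18 of 24 below 0. The groups differed: the fork median was -0.30 in C1q-led and -0.51 in Ncr1/Klrb1c-led members, -0.04 in CD3-led members, and 0.10 in Flt3/H2-Aa-led members, where 11 of 20 fork genes were above 0. Rrm2 was the lowest at -0.73: it went from 153 to 71.7 CPM in C1q-led, from 226 to 160 in CD3-led, from 89.1 to 64.2 in Flt3/H2-Aa-led and from 187 to 102 in Ncr1/Klrb1c-led members. The helicase subunit Mcm7 (124 to 86.9 CPM in the mean of the groups, -0.48) and the licensing inhibitor Gmnn (116 to 82.6 CPM, -0.51) were also lower in all 4 groups. Chromatin genes had a median of -0.30 (-0.27 in non-cycling barcodes), with 9 of 11 below 0. Among them the histone variant H2afz stood at 2277 CPM in the wild type against 1712 CPM in the knockout, lower in all 4 groups.

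Mitotic genes were divided. The G2/M list had a median of 0.05, with 17 of 29 above 0, a share like that of all genes tested (3310 of 5743), a direction that turned to -0.03 when genes were scaled by the median of ratios and to -0.11 without mixed barcodes, and the spindle list one of 0.06. The group medians differed in sign. In CD3-led members the G2/M median was 0.18, with 22 of 30 genes above 0, against 4219 of all 7806 tested there. That median lay within the counting interval of a typical gene of the list, 0.43 to either side. In Flt3/H2-Aa-led members it was -0.22, with 24 of 30 below 0, against 5064 of all 10803. Kif20b, a kinesin of cytokinesis, was the highest at 0.86, from 45.4 to 83.3 CPM, higher in all 4 groups. Prc1, which bundles the midzone (144 to 206 CPM, 0.44), and the kinetochore kinesin Cenpe (110 to 158 CPM, 0.51) were also higher in all 4. The tubulin gene Tubb5 went from 1421 to 1060 CPM (-0.44) and Cdca3, which triggers mitotic entry, from 136 to 90.8 CPM (-0.62), lower in all 4 groups. Cyclin A2 was at -0.37 and Cdk1 at 0.07. Both CIP/KIP inhibitors of CDKs with enough UMIs were also higher in all 4 groups, Cdkn1b at 0.91 (46.1 to 85.8 CPM) and Cdkn1a at 0.52 (134 to 194 CPM), with 0.67 and 0.32 in non-cycling barcodes.

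Replication-dependent histone genes did not move together. Of 67 symbols, 24 had enough UMIs, and 15 were higher and 9 lower in knockout members, with a median of 0.24. That share of higher genes is close to the share of all tested genes given above for the G2/M list. Hist1h2ap stood apart at -1.91 (-2.07 to -1.76), from 357 to 97.4 CPM, lower in all 4 groups, and was at -2.22 in non-cycling barcodes. Hist1h3c (1.64), Hist1h2an (1.45), Hist1h1e (1.27) and Hist1h1b (1.06) were at least 2-fold higher. Hist1h1b, a linker histone, stood at 235 and 465 CPM over all members and at 7.49 and 17.2 CPM outside the rule. Within a histone family some of these genes are near-identical copies, and counting could split reads between such copies, so single values are uncertain.

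Heat shock genes had the highest list median between the members of the libraries. All 12 were higher in knockout members and 7 of them at least 2-fold (background 1.43%), with a median of 1.22, against 0.78 in non-cycling barcodes. Hsph1, an HSP110 chaperone, went from 174 to 725 CPM in C1q-led, from 498 to 1287 in CD3-led, from 427 to 1187 in Flt3/H2-Aa-led and from 419 to 1425 in Ncr1/Klrb1c-led members, so the knockout level was above the wild-type level in every group. Hspd1, the mitochondrial chaperonin, went from 255 to 703 CPM in the mean of the groups (1.46) and Hspa1a, an inducible HSP70, from 947 to 2254 CPM (1.30). Hspa8, the constitutive HSP70, had the lowest ratio, 0.49. Heat shock genes also respond to tissue dissociation, and the part of sample handling was not tested. With 1 library a genotype, handling and genotype cannot be told apart. The immediate early genes had a median of 0.03, with 7 of 12 above 0 and none at 2-fold.

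Interferon genes were higher as well, with wide spread. Of the 7 with enough UMIs in all 4 groups, 6 were above 0 and 3 at least 2-fold (background 1.43%), with a median of 0.46, and 0.45 in non-cycling barcodes. The median was 1.18 with the rule at 1 UMI of each gene and 0.95 without the filter on low counts. Ifit1, an RNA-binding antiviral protein, went from 40.1 to 84.8 CPM in C1q-led, from 27.7 to 184 in CD3-led, from 58.7 to 176 in Flt3/H2-Aa-led and from 49.8 to 202 in Ncr1/Klrb1c-led members, though in the last group 86.4% of the knockout UMIs lay in 5 barcodes. Rsad2, viperin, had a ratio of 1.69 (43.0 to 144 CPM), and Irf7, a driver of interferon genes, -0.14. Glycolysis genes were lower, with a median of -0.56 and 9 of 11 below 0 (-0.47 in non-cycling barcodes). Gapdh went from 1294 to 845 CPM (-0.63) and Tpi1 from 152 to 92.6 CPM (-0.69), both lower in all 4 groups, while the platelet-type phosphofructokinase Pfkp was higher in all 4, from 110 to 178 CPM (0.64).

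**Figure D5:**
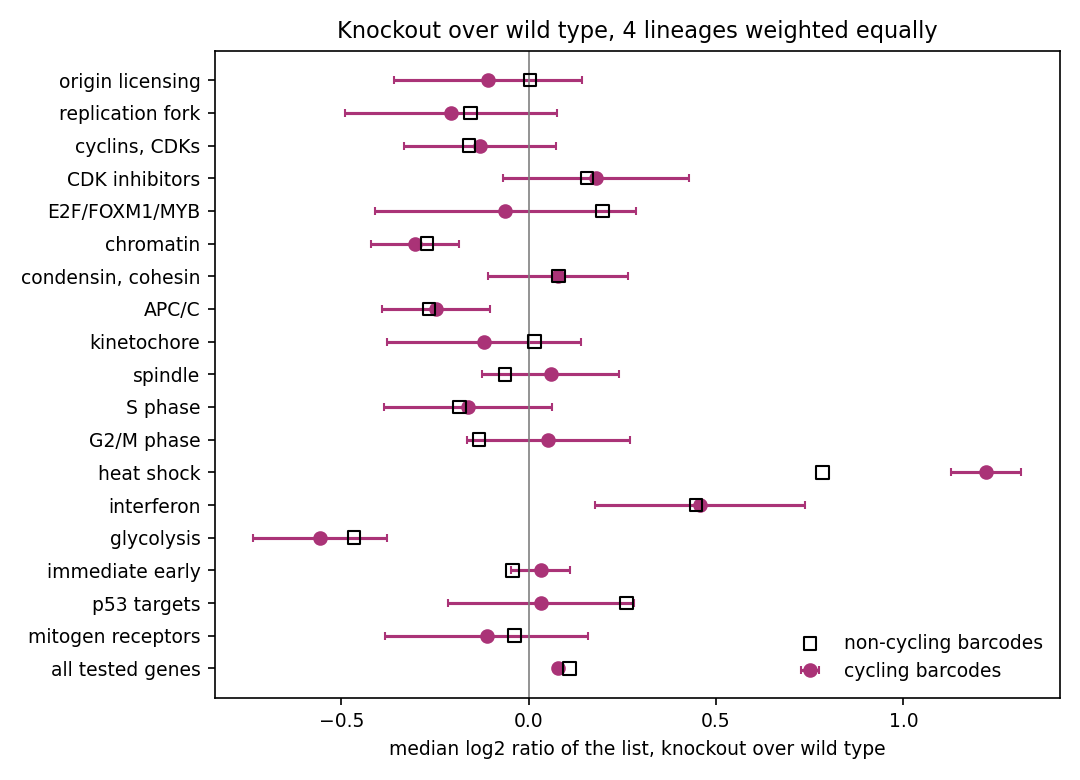
Median log2 ratio of knockout over wild type (x axis) for each gene list (y axis), 4 groups weighted equally, in cycling (purple circles) and non-cycling (open squares) barcodes. Bars are the 95% counting interval of a typical gene of the list, centred on the median, and cover no difference between animals; heat shock genes lie at 1.22 and glycolysis genes at -0.56 in cycling barcodes.

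Beyond the lists, a fixed rule named the 8 highest and 8 lowest genes of at least 100 CPM. Gzmb, the cytotoxic protease granzyme B, was the lowest of the equal-weight ratios at -1.98 (-2.20 to -1.75), and at -1.42 in non-cycling barcodes. In CD3-led members it went from 579 to 136 CPM (-2.08), with 62.3% of the wild-type UMIs in 5 barcodes, and in the non-cycling CD3-led barcodes from 462 to 138 CPM. The XCR1 ligand Xcl1 (-1.01), the macrophage survival factor Cd5l (320 to 139 CPM) and the secreted lectin Chil3 (-1.11) were also among the lowest. So were the granule genes Prtn3 (-1.64) and Elane (-1.04), which granulocyte precursors express. With equal weights, the CD3-led, Ncr1/Klrb1c-led and Flt3/H2-Aa-led groups each count as much as the C1q-led one for such myeloid genes. In Flt3/H2-Aa-led members, 84.6% of the wild-type UMIs of Prtn3 and 93.4% of those of Chil3 lay in 5 barcodes. The part of free RNA and of mixed barcodes in these ratios was not tested. Ifih1, the RNA sensor MDA5, was among the highest at 1.92 (1.71 to 2.12), from 135 to 433 CPM, higher in all 4 groups, and at 0.85 in non-cycling barcodes, but 90.1% of its knockout UMIs in Ncr1/Klrb1c-led members lay in 5 barcodes. Mrps6, a mitochondrial ribosomal protein, was at 1.59, from 60.1 to 173 CPM.

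By group, macrophage-like members had the largest single differences. The Kupffer-cell scavenger receptor Marco went from 782 to 39.3 CPM (-4.30, -4.61 to -3.99), and it went from 699 to 93.0 CPM in the non-cycling barcodes, with 80.4% of the wild-type cycling UMIs in 5 barcodes. The chemokine gene Cxcl13 had 485 UMIs in the wild type against 7 in the knockout (-6.54), 85.4% of the wild-type ones in 5 barcodes. The 6 highest ratios were all of genes that hepatocytes express, from Ttr (4.62) to Apoa2 (5.71), with 90.8% to 97.8% of the knockout UMIs in 5 barcodes. Gpnmb, a marker of lipid-laden and scar-associated macrophages and the next highest, went from 58.9 to 629 CPM (3.40, 3.09 to 3.71), against 387 and 517 CPM in non-cycling barcodes, with 63.9% of the knockout cycling UMIs in 5 barcodes. In Ly6c2/Ccr2-high members the granule genes S100a8 (-1.74) and Camp (-1.58) were lower in the knockout, with 54.9% and 59.4% of their wild-type UMIs in 5 barcodes, and Oasl1, an interferon gene, was higher (3.08), with 85.8% of the knockout UMIs in 5 barcodes.

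In CD3-led members, the chemokine gene Ccl3 (-1.22), the phosphatase Dusp2 (-1.26) and Xcl1 (-1.24) were lower. Of their wild-type UMIs, 55.2%, 38.4% and 47.9% lay in 5 barcodes. The ratios in non-cycling CD3-led barcodes were 0.02, -1.17 and -1.13. The SRC-family kinase Yes1 was higher, from 37.0 to 291 CPM (2.91, 2.26 to 3.56), against 0.68 in non-cycling barcodes, as were the CD30 ligand Tnfsf8 (2.36, with 60.1% of the knockout UMIs in 5 barcodes) and the interferon gene Herc6 (1.53). Klrd1, the CD94 receptor chain of NK cells, went from 574 to 220 CPM in Ncr1/Klrb1c-led members (-1.38, -1.72 to -1.03), against -0.13 in the non-cycling ones. Among Flt3/H2-Aa-led members the highest ratios included Spp1 (2.43), Clu (2.41), Krt18 (2.30) and Krt8 (1.99), genes of bile duct epithelium, with 84.5% to 90.4% of their knockout UMIs in 5 barcodes. Without the 5 deepest barcodes of each library these ratios turned to -0.02, -0.15, -0.67 and -0.75. The cochaperone Bag3 (2.15, 54.5 to 247 CPM) and Mrps6 (2.16, 43.0 to 197 CPM) had 24.8% of their knockout UMIs in 5 barcodes.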

How the data were processed

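Per the labels' protocols, the libraries were made with Chromium Single Cell 3′ v3 reagents. The authors deposited raw UMI counts per gene and barcode, made with version 7.0.1 of Cell Ranger, as the file headers record. The submitters' processing notes name Cell Ranger 3.1.0, Seurat and the mm10 build. Default treatment of intronic reads differs between these versions, and which was used is not given in the sources used here. The lowest barcode total was 500 UMIs.

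The counts were summed over barcodes of a group and library and scaled to CPM. Shares carry Clopper-Pearson intervals, CPM exact Poisson intervals and ratios exact conditional intervals or, for named genes, normal ones on the log2 scale, all for counting error only. Genes needed at least 20 UMIs over both libraries. Doublets were scored with Scrublet (scanpy 1.11.5) at 0.8% per 1000 barcodes: the highest 1034 wild-type and 1295 knockout scores are left out in an alternative only. Its automatic threshold marked 207 (1.82%) and 754 (5.93%).

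Named genes were list genes, the 25 highest of cycling over non-cycling, and the 8 highest and 8 lowest knockout ratios, at a mean of at least 100 CPM, at least 30 UMIs and 20% of cells. The members, lists and rules were chosen with earlier results of these data known. The step for exact conditional intervals was run on simulated independent counts, the kind of counts that these intervals assume. That run cannot show how the intervals hold where UMIs lie in few barcodes, and it did not cover the normal intervals. Work used Python 3.11.15, numpy 2.4.6, scipy 1.17.1 and pandas 2.3.3.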

Additional observations from a re-analysis of the deposited data

Results flagged for a closer look

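The immediate early genes, transcribed within minutes of a stimulus, went different ways between groups of cycling barcodes. Their median log2 ratio of knockout over wild type was -0.11 in C1q-led members and 0.66 in granulocyte-progenitor-like members. It was 0.20 in Flt3/H2-Aa-led and 0.22 in Ncr1/Klrb1c-led members. In non-cycling barcodes of these groups, in the same order, the medians were 0.07, 0.42, 0.05 and -0.23. The difference between groups was not tested, since each genotype is 1 library, and the granulocyte-progenitor-like barcodes are themselves a share of the C1q-led ones.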

How the results depend on the processing

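Of 168 values of shares, makeup and lists under alternatives, 143 moved by less than their counting error and 25 by more. Among them the sign turned for the CD3-led ratio and the G2/M list median, whose counting intervals included 0. The overall cycling ratio (log2 0.57) was 0.36 at 5000 UMIs and 0.46 to 0.65 under the other alternatives. The Flt3/H2-Aa-led ratio (1.01) was 0.50 at 5000 UMIs, 1.31 at 3000 UMIs and 0.35 with Flt3 alone in its sum (4 of 63 and 5 of 62), and the CD3-led ratio (0.50) was -0.11 without mixed barcodes. The endothelial ratio (2.65) ran from 1.87 with 10 G2/M UMIs to 3.55 at 3 UMIs, and was 3.34 at 5000 UMIs.

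Makeup depended on the sums. The C1q-led percent of members (55.1% and 41.3%) was 21.5% and 19.5% with further lineage sums, 67.3% and 69.7% with Flt3 alone, 62.3% in the wild type with 10 G2/M UMIs, 61.8% in the wild type without mixed barcodes, 45.9% in the knockout at 1 UMI, and 33.7% in the knockout at 3000 UMIs. The Flt3/H2-Aa-led percent was 1.28% and 0.97% with Flt3 alone, 10.7% in the wild type at 3000 UMIs, and in the knockout 22.9% with 10 G2/M UMIs and 38.0% without mixed barcodes. The endothelial percent was 4.37% and 14.5% with 10 G2/M UMIs, and 11.7% in the knockout without mixed barcodes.

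The heat shock median (1.22) was 1.07 at 1 UMI and 1.03 without mixed barcodes, the interferon median (0.46) was 1.18 at 1 UMI and 0.95 without a filter on low counts, and the glycolysis median (-0.56) was -0.37 without the 5 deepest barcodes of each group and library. The causes were not tested. Of 624 values of named genes, 475 moved by less than their counting error, 136 by more, and 13 reversed, all in Flt3/H2-Aa-led members. At 1 UMI, Clu was -0.23, Krt18 -0.38 and Krt8 -0.30. Without the highest doublet scores they were -0.26, -0.79 and -0.90. Without the 5 deepest barcodes they were -0.15, -0.67 and -0.75, with Spp1 at -0.02, and without mixed barcodes -0.24, -0.67 and -1.02.

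No paired analysis was possible because each genotype has 1 library. Depth limits the rule: a barcode of few UMIs cannot reach 2 of each gene, and free RNA can bring UMIs to one that does not cycle. The splits of the C1q-led group, Flt3 alone and the removal of B-cell RNA were chosen after seeing the data.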

Other observations

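Receptors for growth signals were not higher in cycling barcodes as a list. Over the 8 pairs of group and library the 18 genes had a median of -0.23 on the log2 scale. Of them 6 were above 0, against 6839 of all 10681 genes. The endothelial group is not among these pairs, and Pdgfrb, Flt4 and Tek had mean levels of only 2.57, 4.81 and 4.99 CPM in them. The list median thus does not describe each receptor in the cells that use it. Met, the receptor of hepatocyte growth factor, had the highest median, 1.28 (-0.20 to 3.27), and Flt3 had 0.75 (-0.29 to 0.99). The interleukin-7 receptor Il7r was at -0.88 (-1.41 to 0.55) and the common gamma chain Il2rg at -0.48 (-1.59 to -0.08), lower in all 8 pairs.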
